A study of Homo sapiens with 6 samples.

Results

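Origin firing factors turn loaded MCM rings into active helicases, and their RNA was followed here in cells depleted of LSD1. The members were chosen by name and are TICRR, MTBP, TOPBP1, RECQL4, DONSON, CDC45 and the GINS subunit genes GINS1, GINS2, GINS3 and GINS4. All 10 were among the 15585 genes of the count table, and all 10 passed the filter on low counts. The study examined the histone demethylase LSD1 (gene KDM1A) in DNA replication, and RNA-seq was used to ask whether its loss changes the RNA of replication genes. Cells labelled U2OS, a human osteosarcoma line, were transfected for 48 h with a control siRNA (siCTR, 3 libraries) or with LSD1 siRNA (siLSD1, 3 libraries). Which of the LSD1 siRNA sequences of the study was used for RNA-seq is not given in the sources used here. The libraries held 12513511 to 13561344 counted reads, and the members had 196 to 3730 reads each in a library. The labels do not say whether replicates were separate cultures, so that p-values measure only the spread between these samples.

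In G1 phase the replicative helicase core, a ring of MCM proteins, is loaded onto DNA in an inactive form. At the onset of S phase, kinases phosphorylate TICRR (also called Treslin) and the MCM ring, TICRR with its partner MTBP binds TOPBP1, and CDC45 and the GINS complex are brought to the ring with the help of DONSON, which makes the CMG helicase. RECQL4 acts late in this process, and many of these genes are transcribed in a cell cycle-dependent manner under E2F factors.

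The knockdown was seen in every siLSD1 library. KDM1A (chromosome 1, 23019443 to 23083689, GRCh38) had read counts of 6140, 6493 and 6573 for siCTR (replicates 1 to 3, the order used throughout) and of 1110, 1198 and 1246 for siLSD1. The siLSD1 mean was 18.5% of the siCTR mean in TMM-scaled reads relative to library size (CPM). The markers of the cell line were mixed. In siCTR, VIM was at 428 FPKM, a unit that accounts for gene length and depth, ALPL at 124 and COL1A1 at 1.62 FPKM, whereas the osteoblast genes RUNX2 and SPARC had 0 to 4 and 0 to 3 reads per library. The epithelial keratin genes KRT8 and KRT18 were at 450 and 557 FPKM, EPCAM at 1.28 and CDH1 at 1.24 FPKM. U2OS is known as a line without telomerase and with lost ATRX, and TERT had 71 to 109 reads and ATRX 1696 to 3460 reads per library. The leukocyte gene PTPRC had 0 or 1 read. COL1A2 and CD3E were not analysed here. Reads of TERT go against the label, although reads do not show whether a whole protein is made. Those of ATRX cannot speak for or against the label, since a count per gene does not show which exons were read. RUNX2 and SPARC were at or near 0, but so was BRD2, a widely expressed gene, with 0 to 4 reads per library, so that a count near 0 in this table need not mean that a gene is silent. The identity of the cells was not tested further, and they are called by their label only.

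The libraries differed in how their reads were spread over genes of differing length and GC content. In siCTR replicate 2, reads came from shorter genes, and the length of the gene behind the median read was 3622 bases against 3931 to 4027 bases in the other 5 libraries. With genes in 5 bins by length, those in the shortest bin (207 to 2161 bases) were at a median of 0.23 above their mean over the 6 libraries on the log2 scale, and those in the longest bin were at −0.19. In siLSD1 replicate 3, genes in the highest of 5 bins by GC content (58.2% or more) were at a median of −0.31 and those in the lowest bin at 0.13. The trend was the other way in siLSD1 replicate 1 (0.17 in the highest and −0.15 in the lowest bin) and in siCTR replicate 1 (0.15 and −0.077). Members differ in both properties, from 2186 bases for CDC45 to 6775 bases for TICRR and from 36.0% GC for MTBP to 65.5% GC for RECQL4. Their part in each result was not tested beyond a fit that takes the trends out (GC and length correction) and fits without each library.

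**Figure D1:**
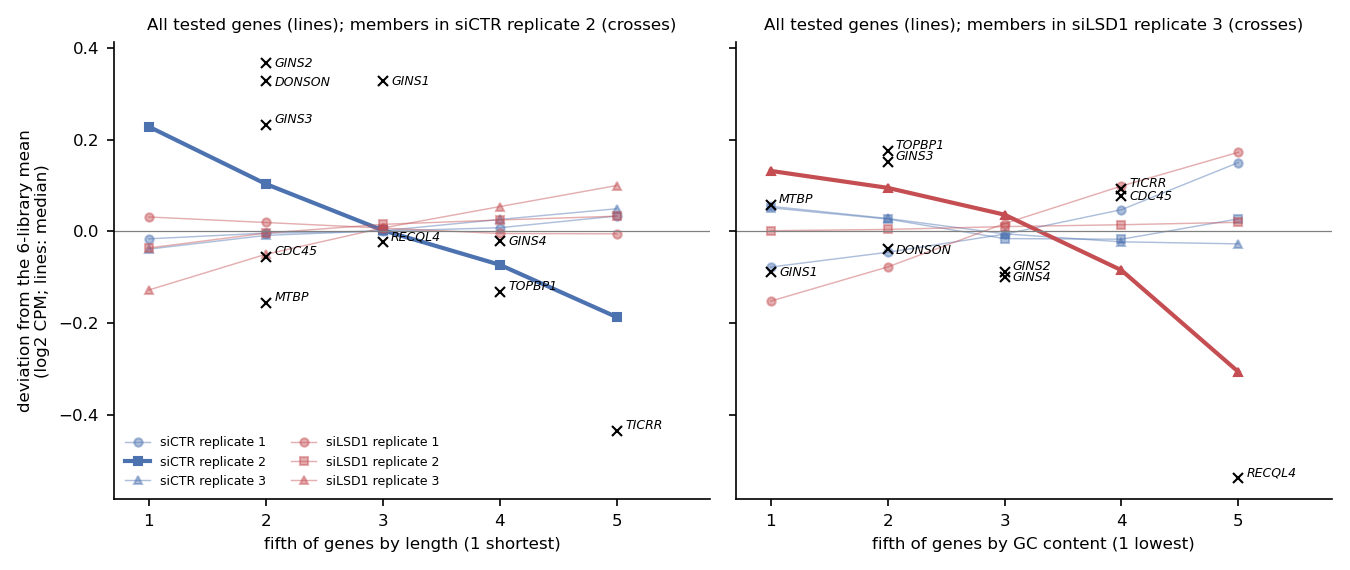
Median deviation of each library from the mean over 6 libraries (log2 CPM) for tested genes, in 5 bins by gene length (left) and by GC content (right), with the members in siCTR replicate 2 (left) and siLSD1 replicate 3 (right) as crosses. TICRR was at −0.43 in siCTR replicate 2, and RECQL4 was at −0.54 in siLSD1 replicate 3.

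Between siLSD1 and siCTR, the members differed by little. Of the 10 members, 0 had an adjusted p under 0.05 in edgeR (Benjamini-Hochberg over 11844 genes), where 1.44% of all tested genes did, and 0 had one in DESeq2 and in limma-voom. At an unadjusted p under 0.05 there was 1 member, DONSON, in each of these 3 tools, where 14.0% of all genes passed in edgeR. Members were higher in 6 and lower in 4 cases, where 47.3% of all tested genes were higher. Their log2 fold changes were from −0.31 to 0.24 with a median of 0.02, against a median of −0.01 over all tested genes. With the GC and length correction 5 members were higher and 5 lower, with a median of −0.014, so that the side of the median depends on it. The 95% confidence interval lay within −0.5 and 0.5 for 7 of the 10 members. It reached a median of 0.28 to either side for the members and 0.31 for all tested genes.

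Separate from the test, the libraries of the groups did not overlap for 4 members in CPM. TICRR, MTBP and CDC45 were above every siCTR library in every siLSD1 library, as were 11.4% of all genes. For TICRR the gap was narrow, with 129.84 CPM in siCTR replicate 1 and 130.03 CPM in siLSD1 replicate 1. When scaled by library size or by DESeq2 size factors, 2 members were above, beside 11.5% and 11.2% of all genes. DONSON was below every siCTR library in every siLSD1 library, as were 9.97% of all genes. With the GC and length correction 0 members were above, beside 15.7% of all genes, and DONSON and RECQL4 were below, beside 14.8% of all genes. Under that correction DONSON had an adjusted p under 0.05 (7.87% of all tested genes did), and MTBP, RECQL4 and DONSON had an unadjusted p under 0.05 (24.8% of all tested genes did). The 3 of 10 members above were thus more than the share of all genes, but became 0 of 10 with the correction while that share grew, and no statement about the members as a group rests on these counts. A member's RNA per cell and the share of cells in S phase cannot be told apart in bulk RNA.

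**Figure D2:**
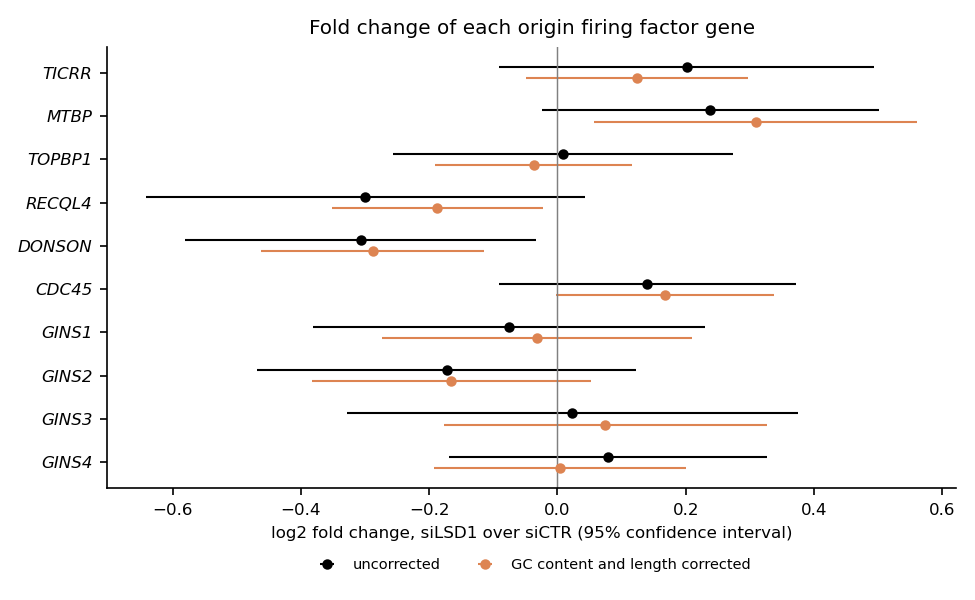
Log2 fold change of siLSD1 over siCTR with its 95% confidence interval for each member, without (black) and with (orange) the GC content and length correction. DONSON was the member whose interval lay below 0 in both.

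Among the factors that carry the signal of the kinases, TICRR brings CDC45 to the MCM ring. TICRR (chromosome 15, 89575469 to 89631056) had read counts of 1686, 1175 and 1707 for siCTR and of 1745, 1728 and 1778 for siLSD1. In CPM, siCTR replicate 2 was at 91.5 and the 5 other libraries were at 127 to 139. Its spread was thus 18.4% (coefficient of variation) in siCTR and 3.41% in siLSD1, and the length of 6775 bases puts it in the bin of the longest genes. The log2 fold change was 0.20, with a 95% confidence interval from −0.09 to 0.49, and 0.12 (−0.05 to 0.30) with the correction. Without siCTR replicate 2 these values were 0.059 and 0.051, so that most of the difference in TICRR rests on that library.

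MTBP binds TICRR and is needed for its action. MTBP (chromosome 8, 120445400 to 120542133) had 24.7, 24.9 and 27.1 CPM in siCTR and 30.3, 31.4 and 28.9 CPM in siLSD1. All 3 siLSD1 libraries were above all 3 siCTR libraries, with a log2 fold change of 0.24 (−0.02 to 0.50). The correction moved it to 0.31 (0.06 to 0.56, unadjusted p of 0.0200 and adjusted p of 0.123 in edgeR with Benjamini-Hochberg adjustment) and placed siCTR replicate 1 and siLSD1 replicate 3 at 26.8 CPM each, without a gap between the groups. In the second set of counts of the same libraries it was 0.17. TOPBP1, the scaffold that TICRR binds, was at 244, 223 and 268 CPM in siCTR and at 217, 246 and 277 CPM in siLSD1. The libraries overlapped over the full range, and the log2 fold change was 0.01 (−0.26 to 0.27).

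DONSON, which brings GINS to the ring, and RECQL4, a helicase of the RecQ family, were the members with the lowest fold changes. DONSON (chromosome 21, 33559542 to 33588706) was at 89.4, 111 and 95.9 CPM in siCTR and at 69.9, 83.6 and 86.1 CPM in siLSD1. The gap between the groups was narrow, since siCTR replicate 1 and siLSD1 replicate 3 had 1161 reads each and differed only in their scaled library size. The log2 fold change was −0.31 (−0.58 to −0.03), a level of 80.9% of siCTR, with an unadjusted p of 0.0311 and an adjusted p of 0.294 from edgeR with Benjamini-Hochberg adjustment. Left out singly, libraries moved the unadjusted p to 0.103 without siCTR replicate 2, 0.124 without siLSD1 replicate 1, 0.0646 without siLSD1 replicate 2, 0.0545 without siCTR replicate 3, 0.0202 without siCTR replicate 1 and 0.0204 without siLSD1 replicate 3. The log2 fold change was −0.21 to −0.37 in these 6 fits. With the correction DONSON was at 93.4, 104 and 96.6 CPM in siCTR and at 73.2, 84.4 and 83.6 CPM in siLSD1. Its log2 fold change was then −0.29 (−0.46 to −0.11), with an adjusted p of 0.0460 in edgeR with Benjamini-Hochberg adjustment. Without the correction the adjusted p was 0.299 in DESeq2, 0.292 in limma-voom and 0.0850 in edgeR with a replicate block, and with both block and correction it was 0.0192 in edgeR, each with Benjamini-Hochberg adjustment. When each library in turn was left out of the corrected fit, a check added after seeing the data, the adjusted p was 0.0593 to 0.164 in edgeR with Benjamini-Hochberg adjustment, so that the call under the correction was lost without any 1 of the 6 libraries. In those fits its log2 fold change was −0.22 to −0.32, with an unadjusted p of 0.00384 to 0.0216.

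RECQL4 (chromosome 8, 144511288 to 144517845) was at 106, 83.2 and 95.1 CPM in siCTR and at 89.9, 83.0 and 58.2 CPM in siLSD1. The lowest library was siLSD1 replicate 3, in which genes of high GC content were low, and the RNA of RECQL4 has 65.5% GC. The log2 fold change was −0.30 (−0.64 to 0.04), and −0.13 without siLSD1 replicate 3. With the correction the siLSD1 libraries were at 78.3, 81.7 and 78.5 CPM and the siCTR libraries at 90.9, 83.5 and 97.1 CPM, with a log2 fold change of −0.19 (−0.35 to −0.02). The unadjusted p was 0.0813 with all libraries and 0.0289 with the correction, where the adjusted p was 0.150 in edgeR with Benjamini-Hochberg adjustment. When siCTR replicates 1, 2 and 3 were left out of the uncorrected fit in turn, the unadjusted p was 0.233, 0.0419 and 0.131. For siLSD1 replicates 1, 2 and 3 it was 0.0261, 0.0845 and 0.343, so that it passed 0.05 in 2 of these 6 fits. Without the correction, the unadjusted p in edgeR was 0.0442 without a filter on low counts and 0.00983 with a replicate block. With that block the adjusted p was 0.0893 in edgeR with Benjamini-Hochberg adjustment.

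**Figure D3:**
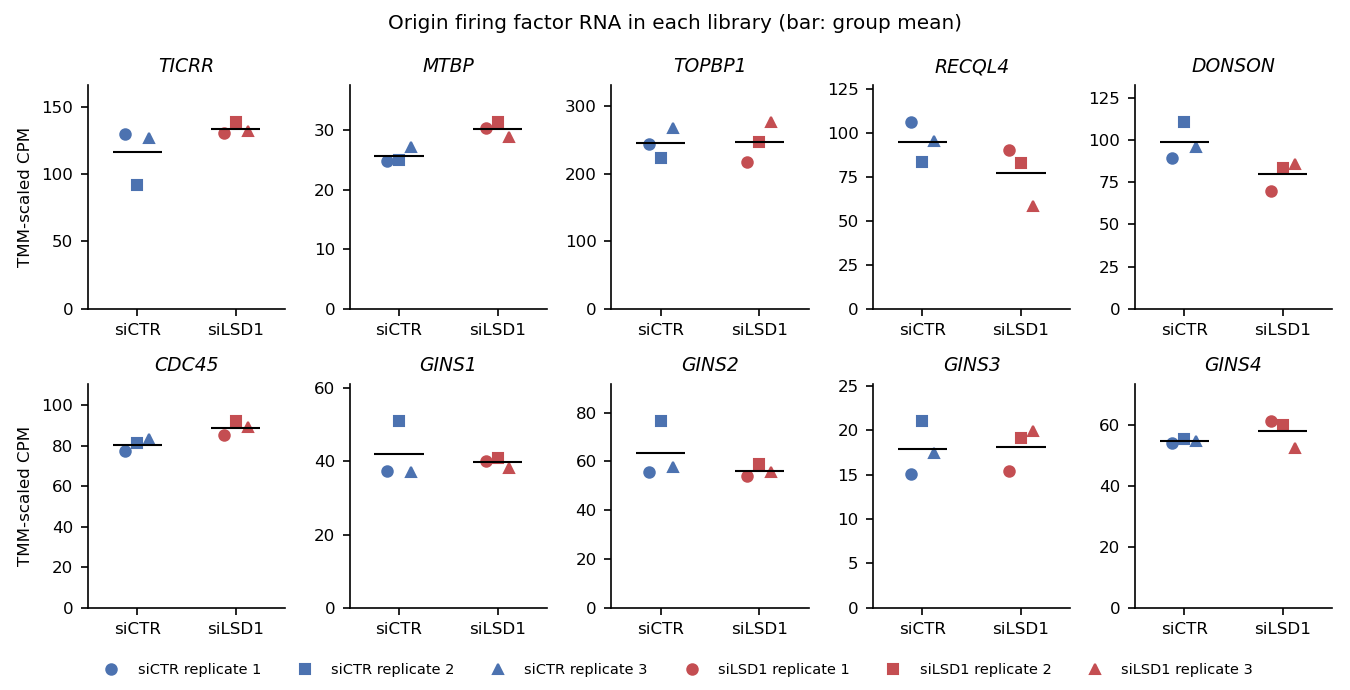
TMM-scaled CPM of each member in each of the 6 libraries (blue siCTR, red siLSD1; circle, square and triangle for replicates 1, 2 and 3), with the group mean as a bar. The low square of TICRR and the high squares of GINS1, GINS2, GINS3 and DONSON in siCTR are all from siCTR replicate 2.

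CDC45 and GINS join the MCM ring to make the CMG helicase. CDC45 (chromosome 22, 19479457 to 19520612) had read counts of 1002, 1045 and 1119 for siCTR and of 1142, 1148 and 1204 for siLSD1. The groups lay close to each other, with 83.2 CPM in siCTR replicate 3 and 85.1 CPM in siLSD1 replicate 1, and the log2 fold change was 0.14 (−0.09 to 0.37). With the correction these libraries changed order, at 85.2 and 82.9 CPM, while the log2 fold change of CDC45 was 0.17 (−0.0023 to 0.34). Its unadjusted p in edgeR was 0.212 without and 0.0527 with the correction. With both the replicate block and the correction the unadjusted p was 0.0351 and the adjusted p 0.142 in edgeR with Benjamini-Hochberg adjustment.

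The GINS complex is built from the products of the GINS genes in equal parts. GINS1 had 37.4, 50.9 and 37.2 CPM in siCTR and 40.1, 40.9 and 38.1 CPM in siLSD1. GINS2 had 55.7, 76.5 and 57.9 CPM in siCTR and 53.9, 58.9 and 55.8 CPM in siLSD1. GINS3 had 15.1, 21.0 and 17.5 CPM in siCTR and 15.4, 19.2 and 19.9 CPM in siLSD1. In each of these subunits siCTR replicate 2 was the highest of the 6 libraries. GINS4 had 54.1, 55.4 and 54.7 CPM in siCTR and 61.2, 59.8 and 52.4 CPM in siLSD1, and here siLSD1 replicate 3 was the lowest. The log2 fold changes were −0.08 for GINS1 (−0.38 to 0.23), −0.17 for GINS2 (−0.47 to 0.12), 0.02 for GINS3 (−0.33 to 0.38) and 0.08 for GINS4 (−0.17 to 0.33). Without siCTR replicate 2 they were 0.09, −0.01, 0.16 and 0.09, so that the direction of GINS1 changed with that library.

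The promoters of GINS1, GINS2 and GINS3, which were all high in siCTR replicate 2, are shown from RefSeq on GRCh38.p14. Those of TICRR and CDC45 are shown too, which were above siCTR in every siLSD1 library in CPM but not with the correction. Each window has 250 bases before and 50 after a start that RefSeq gives. The first window of each gene in the table is shown. For CDC45, GINS1, GINS2 and GINS3 this start lies inside the gene as GENCODE draws it. Windows of 6 members were examined. Those of MTBP, RECQL4 and GINS4 were not looked up, and no window was found for DONSON. The words TTTGGCGC, TTTCGCGC, TTTCCCGC and TTTGCCGC, forms of the E2F motif, and CCAAT were searched on both strands and are in capitals, which for a hit on the other strand show the reverse complement. An E2F-type word was in 3.31% of all 35116 promoter windows and CCAAT in 34.6%.
GINS1: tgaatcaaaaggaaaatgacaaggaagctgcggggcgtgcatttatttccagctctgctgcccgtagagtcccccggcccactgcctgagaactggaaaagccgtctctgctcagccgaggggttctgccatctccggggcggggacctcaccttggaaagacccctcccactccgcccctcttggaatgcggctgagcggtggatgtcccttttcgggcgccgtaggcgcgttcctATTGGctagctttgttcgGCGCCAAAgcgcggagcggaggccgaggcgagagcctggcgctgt
GINS2: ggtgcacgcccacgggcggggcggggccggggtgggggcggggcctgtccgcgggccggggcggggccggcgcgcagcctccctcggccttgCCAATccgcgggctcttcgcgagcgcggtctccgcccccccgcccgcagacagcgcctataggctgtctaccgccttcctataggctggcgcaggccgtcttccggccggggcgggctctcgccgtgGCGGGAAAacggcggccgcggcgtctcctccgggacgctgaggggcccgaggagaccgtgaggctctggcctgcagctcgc
GINS3: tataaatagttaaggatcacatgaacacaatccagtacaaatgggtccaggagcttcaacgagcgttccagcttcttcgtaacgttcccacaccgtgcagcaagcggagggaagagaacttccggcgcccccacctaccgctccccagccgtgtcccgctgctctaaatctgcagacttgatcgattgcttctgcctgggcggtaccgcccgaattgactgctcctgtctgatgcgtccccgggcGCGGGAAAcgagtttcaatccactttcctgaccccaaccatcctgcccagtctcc
TICRR: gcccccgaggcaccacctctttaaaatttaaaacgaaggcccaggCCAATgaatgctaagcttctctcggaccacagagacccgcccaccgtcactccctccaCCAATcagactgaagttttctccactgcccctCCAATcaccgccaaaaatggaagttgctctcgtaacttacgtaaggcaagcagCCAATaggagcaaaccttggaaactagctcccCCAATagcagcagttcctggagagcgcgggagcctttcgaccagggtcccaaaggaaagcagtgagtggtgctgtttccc
CDC45: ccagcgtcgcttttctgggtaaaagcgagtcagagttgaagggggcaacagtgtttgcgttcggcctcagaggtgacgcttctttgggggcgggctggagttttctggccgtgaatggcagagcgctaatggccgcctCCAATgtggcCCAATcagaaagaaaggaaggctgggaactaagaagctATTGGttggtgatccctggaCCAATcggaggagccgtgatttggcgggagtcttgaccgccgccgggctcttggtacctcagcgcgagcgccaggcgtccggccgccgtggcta
These are chr20:25407423-25407722 (+ strand), chr16:85688905-85689204 (− strand), chr16:58392221-58392520 (+ strand), chr15:89575219-89575518 (+ strand) and chr22:19479670-19479969 (+ strand). GINS1 holds 1 E2F-type word, TTTGGCGC, and GINS2 and GINS3 hold 1 each, TTTCCCGC, and TOPBP1, which is not shown, holds TTTCGCGC. In TICRR and CDC45 these letters were not in the window, and CCAAT was found 5 and 4 times, which 0.359% and 0.991% of all windows reach. Of the windows not shown, the second of TICRR holds CCAAT 3 times and the others of CDC45 hold it 0 and 3 times, and none of them holds an E2F-type word. A match is a description of the letters only. Other forms of the E2F motif were not searched, so a window without these words may still hold such a site.

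Ratios of partner genes within a library do not depend on the scaling. The log2 ratio of DONSON to CDC45 was 0.21, 0.45 and 0.21 in siCTR and −0.28, −0.14 and −0.05 in siLSD1. All 3 siLSD1 libraries were lower, with a mean difference of −0.45. The exact permutation test, two-sided, gave p = 0.1, the smallest that 20 arrangements of 3 against 3 allow. Adjusted over 9 ratios with Benjamini-Hochberg, this p was 0.3. DONSON was below and CDC45 above every siCTR library in CPM, so the separation of their ratio follows from those values and is not separate support. CDC45 relative to the sum of the GINS subunit genes was higher in each siLSD1 library, by 0.18, and GINS2 relative to the other GINS genes was lower, with a difference of −0.18 and the same p in the exact permutation test. Without siCTR replicate 2 these differences were 0.087 and −0.11, and in the second set of counts the libraries of CDC45 to GINS overlapped. The corrected CPM gave −0.46 for DONSON to CDC45 and overlapping libraries for the other pair of ratios, whereas RECQL4 to CDC45 (−0.35) and TICRR to TOPBP1 (0.17) no longer overlapped. From read counts, RECQL4 relative to CDC45 was −0.46 (−0.26 without siLSD1 replicate 3) and TICRR relative to TOPBP1 was 0.21 (0.12 without siCTR replicate 2), both with overlapping libraries. TICRR relative to MTBP was −0.02 (−0.18 with the correction), and its libraries overlapped between the groups in both. The remaining ratios were GINS1, GINS3 and GINS4 to the other GINS genes, with differences of −0.02, 0.08 and 0.17 and overlapping libraries. For GINS4 the difference was 0.038 without siCTR replicate 2 and 0.076 with the correction.

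**Figure D4:**
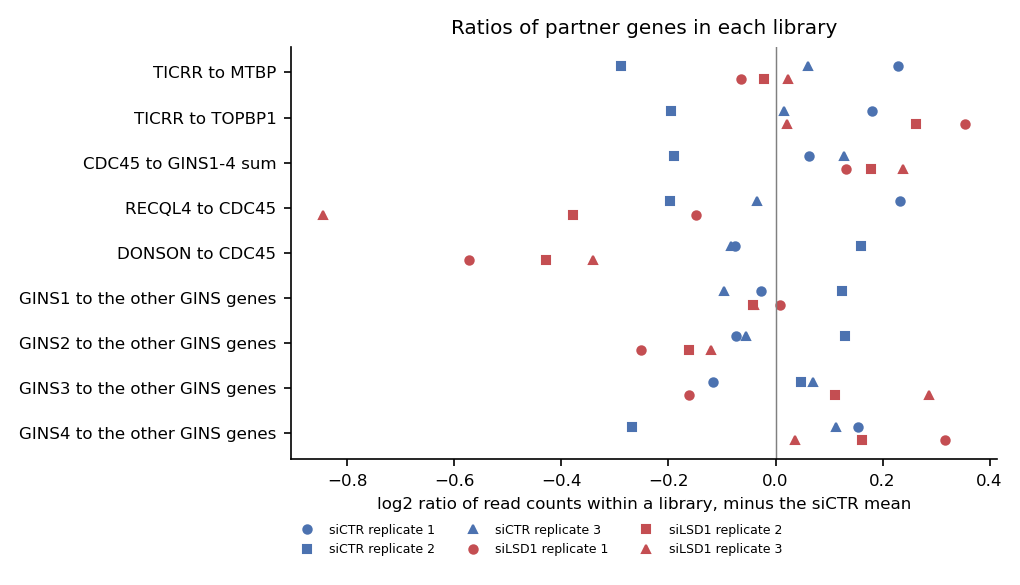
Log2 ratio of read counts of partner genes in each library, minus the siCTR mean of that ratio, with symbols for replicates as named in the legend. DONSON to CDC45 has all siLSD1 libraries below all siCTR libraries.

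Per length, levels can be compared between genes. In siCTR, TOPBP1 was highest with 39.7 ± 3.86 FPKM (SD, n = 3), followed by CDC45 with 36.8 ± 1.21 FPKM and DONSON with 34.3 ± 3.41 FPKM, whose libraries overlapped from 1 neighbour to the next. RECQL4 (24.3 ± 3.25), GINS2 (23.6 ± 3.99) and TICRR (17.1 ± 3.33 FPKM) came next, with a gap between DONSON and RECQL4 and between GINS2 and TICRR. GINS1 (12.8 ± 2.26), GINS4 (10 ± 0.00848), MTBP (8.36 ± 0.454) and GINS3 (7.45 ± 1.15 FPKM) followed, where GINS1 and GINS4, and GINS4 and MTBP, did not overlap. The most abundant of the GINS genes was thus GINS2 and the least abundant GINS3. In siLSD1 the order changed at 2 places, CDC45 with TOPBP1 and RECQL4 with GINS2, and each of these pairs overlapped in its libraries. TICRR was at 2.05 times the level of MTBP in siCTR on this scale, and their libraries did not overlap.

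**Figure D5:**
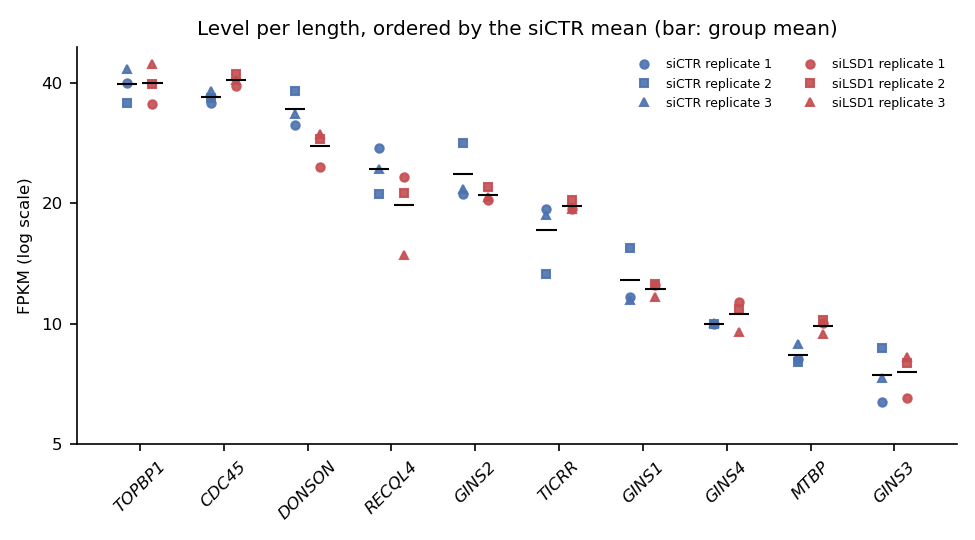
FPKM of each member in each library on a log scale, ordered by the siCTR mean (bars: group means). Levels run from 39.7 for TOPBP1 to 7.45 for GINS3 in siCTR.

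The genes whose log2 CPM over the 6 libraries was most like that of a member were found among 7703 other genes with at least 20 CPM. For CDC45 these were CCDC127, CDYL and MTRF1L, with a root mean square difference of 0.012, 0.024 and 0.027. For TICRR they were UHRF1BP1, SIN3A and PTK7 (0.031, 0.034 and 0.035), and for DONSON they were HSPH1, KDELC1 and PAQR3 (0.040, 0.042 and 0.042). The similarity is over 6 libraries, which share their trends by length and GC content.

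Exons of every member overlap a gene on the other strand in GENCODE release 44, and the strand setting of the counting is not given in the sources used here. DONSON shares 307 exonic bases with SON, which had 5435 to 7461 reads per library and a log2 fold change of −0.0062 (−0.12 with the correction, where it was lower in every siLSD1 library), and 286 bases with a readthrough gene on its own strand. TICRR shares 589 bases with KIF7, which had 67 to 123 reads and a log2 fold change of 0.35, higher in every siLSD1 library. GINS4 (chromosome 8, 41529218 to 41545030) shares 1145 bases with a long noncoding gene. Reads from such stretches cannot be assigned to 1 gene without strand.

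The other genes of replication initiation were examined as lists, beside all tested genes, of which 47.3% were higher without the correction. Licensing genes (ORC, CDC6, CDT1, GMNN and MCM) were lower in 11 of 15 (median log2 fold change −0.05, −0.018 with the correction and −0.0078 without siCTR replicate 2), with MCM4 at −0.26 at an unadjusted p of 0.0295. Firing kinases and regulators were lower in 9 of the 13 tested of 14 (median −0.02) and in 7 with the correction (median −0.063), with the cyclin E genes CCNE1 and CCNE2 at −0.39 and −0.45 (unadjusted p of 0.00480 and 0.00818 in edgeR). The helicase partners had a median of −0.0043 over 9 genes (0.045 with the correction), with POLE4 at −0.34 and TIMELESS at 0.29 at an unadjusted p under 0.05. Of 9 genes of TOPBP1 and ATR, ETAA1 was at 0.57 and RAD9A at −0.45 at an unadjusted p under 0.05, and the median was −0.06 (−0.065 with the correction). The 5 genes of the RecQ family had a median of 0.05 (0.024 with the correction), with RECQL4 as their lowest. The adjusted p of all these genes was 0.134 or more in edgeR with Benjamini-Hochberg adjustment. With the correction MCM4, CCNE1, TIMELESS and ETAA1 had an adjusted p under 0.05 in edgeR with Benjamini-Hochberg adjustment.

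Cell cycle lists were examined beside the members, again with 47.3% of all tested genes higher without the correction. S-phase genes were lower in 10 of 15 (median −0.02), with CCNE2 at −0.45 at an unadjusted p under 0.05, and their sum was 1868, 2106 and 1889 CPM in siCTR and 1875, 1917 and 1913 CPM in siLSD1. With the correction 9 of 15 were lower (median −0.068). siCTR replicate 2 had the highest sum of the 6 libraries. G2/M genes were higher in 9 of 13 (median 0.13, 0.081 with the correction, 0.041 without siLSD1 replicate 3 and 0.046 without siCTR replicate 2), with HMMR at 0.39 at an unadjusted p under 0.05, and their sum was 4658, 4352 and 4980 CPM in siCTR and 4561, 4973 and 5545 CPM in siLSD1. Of the marker genes, CDH1 was at 0.77, KRT18 at −0.32, TERT at −0.41 and ATRX at 0.38 at an unadjusted p under 0.05. Whether these have a part in the members' values was not tested.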

How the data were processed

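Read counts per gene of 6 libraries, in whole reads and without normalization, were deposited by the authors, who aligned clean reads with STAR (no version is given). The authors also deposited FPKM and a signal, in which each library's counts are scaled by 1 size factor. The build, annotation and counter are not given in the sources used here. The deposited tables of single siCTR and siLSD1 libraries with equal numbers hold a second set of counts, never lower and 1.11 times as high in the median. Columns of the authors' own fold changes and p-values were not used.

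Counts were tested in R 4.3.3 with edgeR 4.0.16 (TMM, filterByExpr at a minimum of 10 reads, quasi-likelihood test, Benjamini-Hochberg adjustment over 11844 of 15585 genes). Alternatives were DESeq2 1.42.0, limma-voom (limma 3.58.1), 2 other scalings, 2 other filters, a replicate block, the second set of counts, each library left out, and offsets from the lowess trend (span 0.3) of each library on GC content and length, which were known for 99.3% of tested genes. Corrected CPM values come from the last. GC content is of the longest GENCODE 44 transcript (GRCh38), and the length is the one behind the deposited FPKM. The log2 CPM values used a prior count of 2. Ratios were tested with the exact permutation test, in Python 3.11.15 with numpy 2.4.6 and pandas 2.3.3.

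The named genes are the members, KDM1A, markers of cell identity, and the 3 genes most like TICRR, CDC45 and DONSON. List genes with an unadjusted or adjusted p under 0.05 are named too, though not each of them. Some licensing genes are named only to define their list. SON and KIF7 are named for their overlap with members, and BRD2, a list gene that was not tested, for its low count. Depth was 12513511 to 13561344 counted reads. Set tests were left out. Members and lists were chosen with earlier results of these data known. The procedure was tested on simulated counts.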

Additional observations from a re-analysis of the deposited data

How the results depend on the processing

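Each value is from edgeR unless named. The replicate block rests on numbers in the labels. Deviations from the group mean in libraries with the same number had correlations of 0.328, 0.0744 and 0.310. Each library correlated best with its own number, but the second value was low. Whether the numbers pair the libraries was thus not settled, and the main fit does not pair them. At an unadjusted p under 0.05 there were 1 member and 1662 of all genes. They were 2 members and 1944 of 15585 genes without a filter, 2 and 2546 with the replicate block, 3 and 2917 with the GC and length correction, and 4 and 3349 with both. Leaving out each library gave 0 to 1 members and 1061 to 1712 genes, and with the correction 1 to 3 members and 2174 to 2899 genes. At an adjusted p under 0.05 (Benjamini-Hochberg), 0 members and 171 genes became 323 genes in DESeq2, 290 in edgeR without a filter, 897 with the block, 926 with the correction and 1381 with both, the last 2 with 1 member each, DONSON (log2 fold change −0.29 and −0.29). Without single libraries the counts were 0 members and 58 to 136 genes, and with the correction 0 to 1 members and 313 to 1024 genes. The 1 member was RECQL4 in the fit without siCTR replicate 2, which gave the 1024 genes. Corrected fits without a library were chosen after seeing the data. Without single libraries, with and without the correction, log2 fold changes ranged over −0.081 to 0.093 for TOPBP1 (−0.037 in both fits with the correction and all libraries), −0.43 to −0.13 for RECQL4, −0.16 to 0.092 for GINS1, −0.086 to 0.16 for GINS3, −0.047 to 0.15 for GINS4 and −0.069 to 0.19 for CCDC127. List medians without single libraries ranged over −0.060 to −0.0078 for licensing, 0.041 to 0.18 for G2/M, −0.084 to −0.0037 for firing kinases, −0.039 to 0.12 for helicase partners (0.046 with block and correction), −0.11 to 0.058 for TOPBP1 and ATR, −0.076 to 0.12 for RecQ and −0.10 to 0.0094 for S-phase genes (−0.068 with the correction). Members above siCTR in every siLSD1 library were 0 with the correction and 3 to 4 without single libraries (where 13.6 to 17.3% of the tested genes were), and members below were 2 and 1 to 2 (12.3 to 16.3%). Members above were 2 when scaled by library size (11.5% of the tested genes), by DESeq2 size factors (11.2%) and in the second counts (11.6%). The ratio of TICRR to MTBP was 0.058 in the second counts, −0.18 with the correction and −0.16 to 0.093 without single libraries. GINS1 to the other GINS genes was 0.0034 in FPKM, 0.030 with the correction and −0.072 to 0.037 without single libraries, and GINS3 to the others −0.025 to 0.20. GINS4 in siCTR was at 10.1 FPKM in the second counts. The cause of these shifts was not tested.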
